A study of Mus musculus with 2 samples.

Results

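Elastic fibres give skin, arteries, lung and muscle connective tissue their recoil. They hold a core of crosslinked elastin surrounded by microfibrils, which are polymers of fibrillin decorated with smaller glycoproteins, and fibulins hold elastin and the crosslinking enzymes on that scaffold. Fibroblasts and smooth muscle cells are the usual makers of these proteins, and microfibrils also hold latent transforming growth factor beta in the matrix. The 10 genes described here were chosen by name from the 27998 genes of the files, with earlier results of these data known. They were Fbn1 (fibrillin-1), Mfap2, Mfap5 and Mfap4 (microfibril-associated glycoproteins) and Eln (elastin). The others were Fbln1, Fbln2 and Fbln5 (fibulin-1, fibulin-2 and fibulin-5), Efemp1 (fibulin-3) and Efemp2 (fibulin-4). All 10 were detected in both libraries.

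Mononuclear cells of C57BL/6J mice were profiled in 2 droplet libraries, 1 prepared from a limb muscle (quadriceps) and 1 from the main breathing muscle (diaphragm). The study used 10 mice, and cells of several animals were pooled by tissue before sequencing, so tissue, pool and library cannot be told apart and no test between tissues was possible. Both pools were digested with collagenase B and dispase II and gated on light scatter alone, and the labels used here give no treatment, age or genotype beyond the strain. The quadriceps library held 5159 barcodes and 50854519 unique molecular identifiers (UMIs), and the diaphragm library held 2499 barcodes and 28545242 UMIs.

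After filtering, 5010 quadriceps and 2430 diaphragm cells were kept. Fibro-adipogenic progenitors (FAPs), the interstitial fibroblast-like cells of muscle, were taken as cells with at least 1 Pdgfra UMI and at least 50 Dcn UMIs. This gate held 2339 quadriceps cells and 2008 diaphragm cells, which were 46.7% and 82.6% of the cells kept, with medians of 10782 and 12572.5 UMIs. All 7 markers of the FAP list were above 50 CPM (UMIs of a gene per 1000000 UMIs of the cells summed) in the gated cells of both libraries. Pdgfra stood at 511 CPM in quadriceps FAPs and 533 CPM in diaphragm FAPs. The other cells were grouped by clusters that were built without the 10 genes and without a further 46 genes of the elastic fibre pathway. The libraries shared 5 cell barcodes.

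The genes lie on 8 chromosomes of GRCm38 (GENCODE M21), and all are protein coding. Fbn1 spans chr2:125300594-125507993 on the minus strand, Mfap4 chr11:61485431-61488900 on the plus strand, Eln chr5:134702593-134747323 on the minus strand, and Efemp1 chr11:28853204-28926743 on the plus strand. No exon of the 10 overlapped an exon of another listed gene on the same strand. Promoter windows of 300 bases (250 before to 50 after the start, RefSeq, GRCm38.p6) were found for 7 of the 10 genes. Those of Fbn1 and Efemp1 are shown because their levels correlated over FAPs, and that of Fbln1 because it correlated negatively with both. Capitals mark GGGCGG (GC box) on either strand.

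Fbn1, chr2:125506389-125506688, minus strand: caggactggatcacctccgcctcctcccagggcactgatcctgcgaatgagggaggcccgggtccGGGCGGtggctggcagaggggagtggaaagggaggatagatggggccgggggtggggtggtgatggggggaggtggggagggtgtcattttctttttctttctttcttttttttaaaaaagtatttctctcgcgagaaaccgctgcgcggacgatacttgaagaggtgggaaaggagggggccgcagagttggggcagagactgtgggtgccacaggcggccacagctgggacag

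Efemp1, chr11:28852955-28853254, plus strand: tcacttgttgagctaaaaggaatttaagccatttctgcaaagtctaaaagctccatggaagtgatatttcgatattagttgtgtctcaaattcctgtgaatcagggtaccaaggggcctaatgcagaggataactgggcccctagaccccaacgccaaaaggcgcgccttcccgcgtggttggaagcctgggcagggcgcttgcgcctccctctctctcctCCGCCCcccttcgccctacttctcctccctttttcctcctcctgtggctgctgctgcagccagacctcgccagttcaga

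Fbln1, chr15:85205699-85205998, plus strand: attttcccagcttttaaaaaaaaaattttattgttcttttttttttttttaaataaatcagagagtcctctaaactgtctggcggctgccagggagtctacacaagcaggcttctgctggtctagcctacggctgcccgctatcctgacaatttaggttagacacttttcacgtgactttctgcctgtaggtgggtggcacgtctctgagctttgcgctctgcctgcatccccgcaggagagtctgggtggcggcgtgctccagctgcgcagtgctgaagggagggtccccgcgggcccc

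On either strand, GGGCGG was found in 5 of the 7 windows (Fbn1, Fbln2, Fbln5, Efemp1 and Efemp2) and in 35.7% of 32851 promoter windows of the same length. TATAAA was in 0 of the 7 and in 13.6% of all windows, and TGACTCA (AP-1) was in 0 of the 7 and in 5.20% of all windows. CAGAC, the core of a Smad-binding element, was in 5 of the 7 and in 49.6% of all windows. These are letter matches only.

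The next question was which cells of muscle carried these transcripts. Most of the UMIs of every gene lay in FAPs. In quadriceps, FAPs held between 56.4% (Eln) and 93.4% (Fbln2) of a gene's UMIs. In diaphragm the range was 92.2% (Eln) to 97.4% (Mfap4). Over all genes, FAPs held 26559263 UMIs of a quadriceps library of 50854519, and 25876869 UMIs of a diaphragm library of 28545242. The Eln share in quadriceps and the diaphragm shares were thus close to the FAP share of all UMIs. Levels were then compared as CPM of UMIs summed over each class with at least 20 cells. In diaphragm, where FAPs and 4 other named classes reached that size (cells outside the gate that clustered with FAPs are given apart), FAPs had the highest level of all 10 genes. In quadriceps, with 10 classes, FAPs had the highest level of 4 genes, tenocyte-like cells of 3 and endothelial-like cells of 3. Diaphragm held only 18 tenocyte-like and 10 endothelial-like cells, so these classes were left out there and the 2 counts cannot be compared between tissues. Also left out were 7 mesothelial-like diaphragm cells, in which Efemp1 and Eln stood above FAPs, as given at the end.

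**Figure D1:**
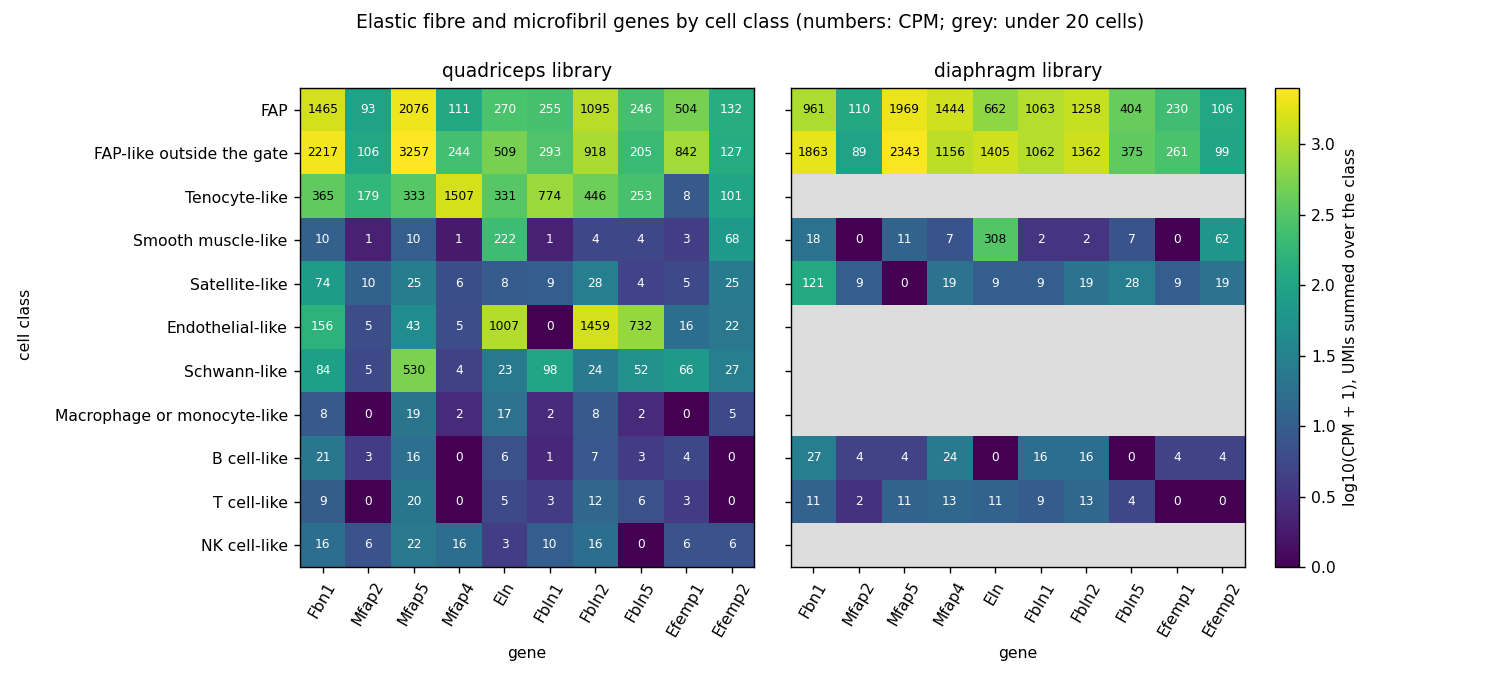
Level of the 10 genes (horizontal axis) in each cell class (vertical axis) of the quadriceps (left) and diaphragm (right) libraries. Colour is log10 of CPM + 1, the number in a box is CPM, and grey marks classes under 20 cells. Immune classes are dark for all genes, while tenocyte-like cells are bright for Mfap4 (1507 CPM) and endothelial-like cells for Eln (1007 CPM).

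Fbn1, which polymerises into the microfibril, stood at 1465 CPM in quadriceps FAPs (95% Poisson interval 1451 to 1480) and at 961 CPM in diaphragm FAPs (949 to 973). In quadriceps the next class was tenocyte-like cells at 365 CPM, 4.01-fold below FAPs (interval 3.53 to 4.58). Mfap5, which binds fibrillin, stood at 2076 CPM in quadriceps FAPs and 1969 CPM in diaphragm FAPs. Its next class in quadriceps was Schwann-like cells at 530 CPM. With each cell thinned to 1000 UMIs, Mfap5 was seen in 25.4% of the 189 Schwann-like cells and in 2.50% of 80 macrophage- or monocyte-like cells, whose unthinned median depths were 4710 and 7636.5 UMIs. Efemp1, a fibulin of basement membranes and connective tissue, was at 504 CPM in quadriceps FAPs and at 7.77 CPM in tenocyte-like cells, 64.9-fold lower on 5 UMIs there. Fbn1, Mfap5 and Efemp1 were thus the genes whose levels were at least 4-fold higher in FAPs than in tenocyte-like cells of quadriceps.

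Mfap4, a fibrinogen-domain protein that binds elastin and fibrillin, had the opposite order in quadriceps. It stood at 1507 CPM in 119 tenocyte-like cells (interval 1414 to 1605) and at 111 CPM in FAPs (107 to 115). Fbln1, a fibulin of elastic fibres and basement membranes, was at 774 CPM in tenocyte-like cells and 255 CPM in FAPs. Mfap2, the other small fibrillin-binding glycoprotein, was at 179 CPM and 92.6 CPM. Tenocyte-like cells were a class led by Wif1, Kera, Chad, Cilp2 and Scx, and 94.1% of them had over 5% mitochondrial UMIs.

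Eln, Fbln2 and Fbln5 were highest in endothelial-like cells of quadriceps, a class of 58 cells led by Ccl21a, Mmrn1, Cldn5, Egfl7 and Lyve1. The kind of vessel these cells came from was not tested. Eln, the elastic core protein, stood at 1007 CPM in this class (interval 868 to 1162) against 270 CPM in FAPs. Fbln5, which carries elastin to microfibrils, stood at 732 CPM (614 to 866) against 246 CPM. Fbln2, a fibulin of vessel walls and basement membranes, stood at 1459 CPM (1291 to 1644) against 1095 CPM in FAPs. Fbln1 had 0 UMIs in the same 58 cells, which allows at most 16.2 CPM, so FAPs were at least 15.8-fold higher. Of these cells 81.0% had over 5% mitochondrial UMIs. With a limit of 5% both this class and the tenocyte-like class fell under 20 cells, and FAPs then had the highest level of all 10 genes among the classes left.

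Smooth muscle-like cells carried a narrow part of the set. Eln stood at 222 CPM in 971 quadriceps cells (interval 214 to 230) and at 308 CPM in 38 diaphragm cells (259 to 364). Efemp2, which brings lysyl oxidase to elastin, stood at 67.7 CPM and 62.1 CPM. FAPs were 1.22-fold higher for Eln and 1.95-fold higher for Efemp2 in quadriceps. All smooth muscle-like cells had over 5% mitochondrial UMIs, with a median of 17.0% in quadriceps against 3.97% in quadriceps FAPs. Its part in these ratios was not tested. The smooth muscle-like cells held 26.1% of all Eln UMIs and 20.5% of all Efemp2 UMIs of the quadriceps library. Fbn1 was at 9.97 CPM and Mfap4 at 0.736 CPM in the same quadriceps cells, 147- and 151-fold below FAPs.

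Cells that clustered with FAPs but missed the gate numbered 242 in quadriceps and 155 in diaphragm, with medians of 4441.5 and 3662 UMIs. Fbn1 was higher in them than in gated FAPs, at 2217 and 1863 CPM, and so was Eln, at 509 and 1405 CPM. Mfap5 stood at 3257 and 2343 CPM. Other genes were lower outside the gate, among them Fbln2 in quadriceps (918 against 1095 CPM) and Mfap4 in diaphragm (1156 against 1444 CPM). Over 5% of UMIs were mitochondrial in 49.2% of these quadriceps cells and 72.9% of these diaphragm cells, and the part of this in their levels was not tested.

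To compare detection at equal depth, each cell was thinned to 1000 UMIs. Mfap4 was then seen in 4.66% of quadriceps FAPs (exact binomial interval 3.84 to 5.59) and in 50.5% of diaphragm FAPs (48.3 to 52.8). Fbln1 was seen in 17.2% and 58.8%, Eln in 18.2% and 34.4%, and Efemp1 in 28.7% and 15.8%. Without thinning, Mfap4 was seen in 13.3% and 77.9% of FAPs. As a background, Mfap4 was seen after thinning in 0 of 215 quadriceps B cell-like cells, which allows up to 1.40%, and in 2.35% of 85 diaphragm T cell-like cells. Unthinned median depths were 2997 UMIs in those B cell-like cells and 5404 UMIs in those T cell-like cells. Intervals and limits cover counting error only.

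**Figure D2:**
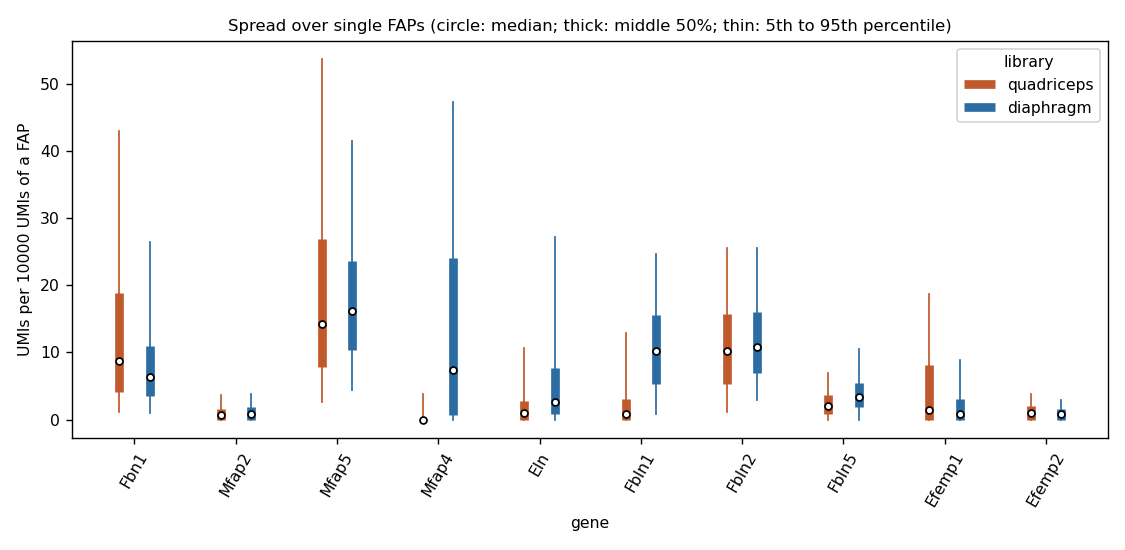
UMIs per 10000 UMIs in single FAPs (vertical axis) for each gene (horizontal axis) in the quadriceps and diaphragm libraries. Circles are medians, thick bars the middle 50% of cells and thin lines the 5th to 95th percentile. The median of Mfap4 is 0 in quadriceps and 7.44 in diaphragm, while those of Mfap5 are 14.3 and 16.2.

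Single FAPs differed widely in these genes. Fbn1 had a median of 8.76 UMIs per 10000 in quadriceps FAPs, with 1.09 at the 5th percentile and 43.0 at the 95th. In diaphragm FAPs the same values were 6.30, 0.975 and 26.4. Mfap4 in diaphragm ran from 0 at the 5th percentile to 47.3 at the 95th, around a median of 7.44. In quadriceps its 75th percentile was 0, yet the highest cell had 98.8. The low quadriceps total of Mfap4 was thus carried by a small share of cells.

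The comparison of FAPs between the muscles covered the 3308 genes that reached 50 CPM in either tissue, and a difference was called at 2-fold or more. Mfap4, Fbln1 and Eln were at least 2-fold higher in diaphragm FAPs, 3 of the 10 genes, where 3.66% of all genes tested passed in that direction. Efemp1 alone was at least 2-fold higher in quadriceps FAPs, 1 of 10, against 3.11% of all genes tested. The median log2 fold (diaphragm over quadriceps) was 0.23 over the 10 genes and -0.10 over all genes tested. With 1 library per tissue these folds have no replicate check. The 10 genes were chosen with earlier results of these data known, so the values over all genes give scale and no test.

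Mfap4 rested on 2950 UMIs in quadriceps FAPs and 37374 UMIs in diaphragm FAPs, at 111 and 1444 CPM, a ratio of 13.0 (counting interval 12.5 to 13.5). Fbln1 stood at 255 and 1063 CPM, a ratio of 4.17 (4.06 to 4.28). Eln stood at 270 and 662 CPM, a ratio of 2.45 (2.38 to 2.52). Efemp1 stood at 504 and 230 CPM, a ratio of 0.455 (0.442 to 0.470). With equal weight given to each FAP subcluster that both libraries held, as described further on, the calls of Eln and Efemp1 were lost and those of Mfap4 and Fbln1 were kept.

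The other 6 genes lay within 2-fold. Fbn1 was lower in diaphragm (log2 fold -0.61), and Fbln5 was higher (0.71, 246 and 404 CPM). Mfap2 (92.6 and 110 CPM, log2 fold 0.25), Fbln2 (1095 and 1258 CPM, 0.20) and Efemp2 (132 and 106 CPM, -0.31) differed less. Mfap5 was closest to equal (log2 fold -0.08), and it stood at 0.04 under TMM scaling and 0.02 when centred on the median fold, which shift all genes alike, and at 0.01 with equal subcluster weight. Scaling by TMM moved the median log2 fold of all genes by over 0.1, from -0.10 to 0.03.

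**Figure D3:**
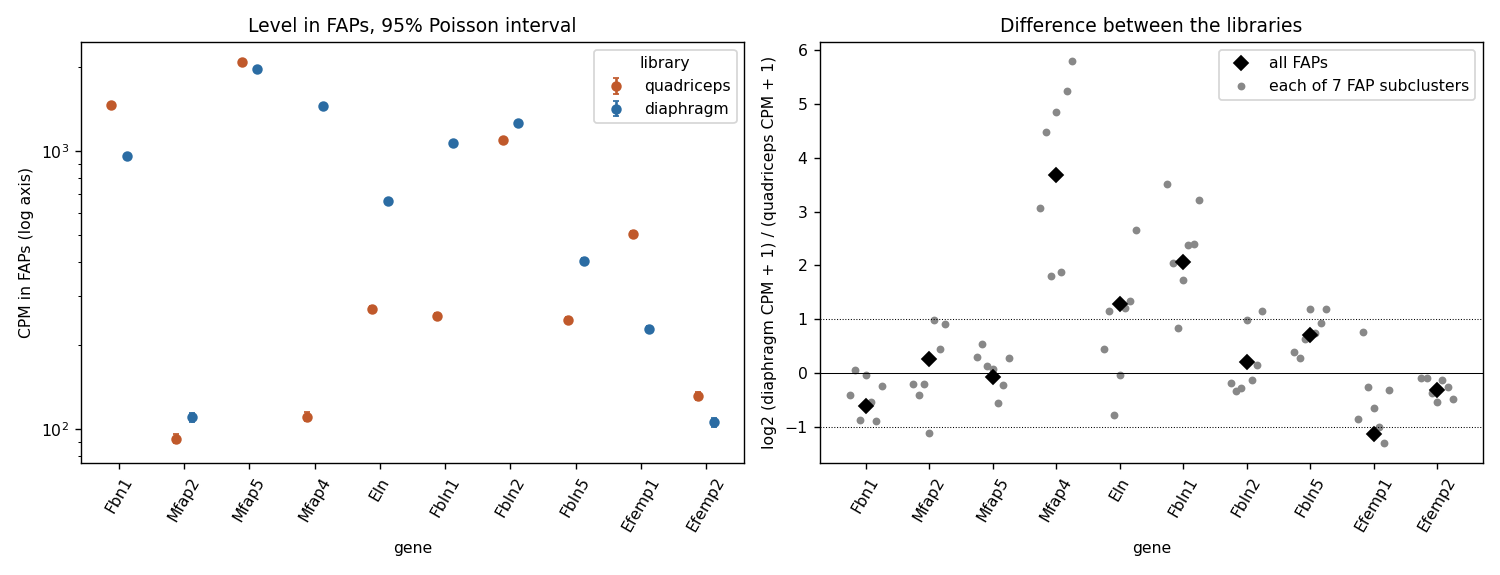
Left, CPM of each gene in FAPs of the quadriceps and diaphragm libraries on a log axis, with 95% Poisson intervals. Right, log2 of (diaphragm CPM + 1) over (quadriceps CPM + 1) for all FAPs (diamonds) and within each of 7 FAP subclusters (grey points), with dotted lines at 2-fold. All grey points of Mfap4 lie above the upper dotted line, while those of Eln span -0.79 to 2.66.

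Other features differed between the same FAPs. The immediate early gene Fos stood at 264 CPM in quadriceps FAPs and 2690 CPM in diaphragm FAPs, and Junb, Egr1 and Atf3 also differed by over 5-fold. Over quadriceps FAPs, the correlation of the 10 genes with the mean of these 4 genes ranged from -0.185 (Fbn1) to 0.102 (Mfap4), and over diaphragm FAPs from -0.0728 (Efemp2) to 0.0855 (Efemp1). The 6 tenocyte markers, all detected in both, summed to 454 CPM in quadriceps FAPs and 1650 CPM in diaphragm FAPs. Of these, 3 reached 50 CPM in quadriceps and 2 in diaphragm, so the larger diaphragm sum did not come from the whole list. The 5 mesothelial markers summed to 7.27 CPM with 2 at 0 and to 96.4 CPM with none at 0, and only 1 of them reached 50 CPM in diaphragm. The 7 smooth muscle markers summed to 2216 and 66.5 CPM, and the 8 muscle fibre genes to 10.8 and 23.6 CPM. Without the Tagln- and Myh11-led FAP subcluster described below, the log2 folds were 3.62 for Mfap4, 2.01 for Fbln1, 1.29 for Eln and -1.18 for Efemp1. With it they were 3.69, 2.05, 1.29 and -1.13. The part of all these features in the tissue folds was otherwise not tested.

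FAPs were next divided into subclusters, again without the 10 genes and the 46 pathway genes and with each gene scaled within its library. A total of 10 subclusters were found, of which 7 held at least 20 cells of both libraries. Their make-up differed between tissues. The subcluster led by C1qtnf3, Thbs4, Slit2 and Fmod held 3.16% of quadriceps FAPs and 24.7% of diaphragm FAPs. The one led by Dmkn, Krtdap and Sbsn held 20.3% and 6.62%, and the one led by Ptn, Clu and Prg4 held 25.7% and 6.42%. A subcluster led by Tagln and Myh11 held 55 quadriceps cells and 0 diaphragm cells, and 51 of the 55 were called doublets by Scrublet.

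At this resolution (0.5), Fbn1, Mfap5 and Efemp1 were highest in the Dmkn-led subcluster of both libraries. Fbn1 reached 2888 CPM there in quadriceps and 2794 CPM in diaphragm. Mfap5 reached 3873 and 4050 CPM. Efemp1 reached 1318 CPM in quadriceps and 841 CPM in diaphragm. These genes ran next highest in the Stmn4- and Pgf-led subcluster of quadriceps, with Fbn1 at 2869 CPM, Mfap5 at 3135 CPM and Efemp1 at 864 CPM. The place of the peak depended on the resolution. At a resolution of 1, Fbn1 in quadriceps was higher in subclusters led by Stmn4 and Fgf1 (3430 CPM) and by Fam167a and Duox1 (3374 CPM) than in the Dmkn-led one (2190 CPM), which held 8 diaphragm cells. In diaphragm, Fbn1 and Mfap5 then peaked in the Fam167a-led subcluster (2865 and 4051 CPM) and Efemp1 in one led by Ptx3 and Has1 (1025 CPM).

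At a resolution of 0.5, Mfap4 and Eln were highest in the C1qtnf3-led subcluster of both libraries. Mfap4 stood at 846 CPM there in quadriceps and 3108 CPM in diaphragm, and at 3.91 and 140 CPM in the Dmkn-led subcluster, its lowest in each library. Its range over subclusters was 216-fold in quadriceps and 22.2-fold in diaphragm. Eln stood at 669 and 1546 CPM in the C1qtnf3-led subcluster. Efemp1 was lowest in that same subcluster, at 64.7 CPM in quadriceps and 31.9 CPM in diaphragm. At a resolution of 1, Mfap4 and Eln in diaphragm peaked in a subcluster led by Wif1 and Chad (3058 and 1649 CPM). Wif1 and Chad were also among the leading genes of the tenocyte-like class. Thbs4 and Fmod, leading genes of the C1qtnf3-led subcluster, were on the tenocyte marker list. Whether these subclusters hold tenocyte-like cells that passed the FAP gate was not tested. In quadriceps, Mfap4 and Eln then peaked in 58 cells led by Pappa2 and Lcn2 (717 and 1299 CPM), a subcluster with 1 diaphragm cell.

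Fbln1 was highest, at a resolution of 0.5, in the subcluster led by C4b, C2, Wisp2 and Gdf10, at 836 CPM in quadriceps and 1495 CPM in diaphragm. At a resolution of 1 its quadriceps peak was in the same 58 Pappa2-led cells as those of Mfap4 and Eln (1368 CPM), with 795 CPM in a subcluster led by Apoe, C2 and C4b. Fbln2 ranged 3.41-fold over quadriceps subclusters and 2.27-fold over diaphragm subclusters. Efemp2 ranged 1.78-fold and 1.32-fold, the narrowest range of the 10 in each library. Fbln5 was also even in diaphragm, where it ranged 1.46-fold. In quadriceps it fell to 41.1 CPM in the subcluster of 53 cells led by Spp1 and Tenm2, where Fbln1 stood at 8.22 CPM and Eln at 39.0 CPM.

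**Figure D4:**
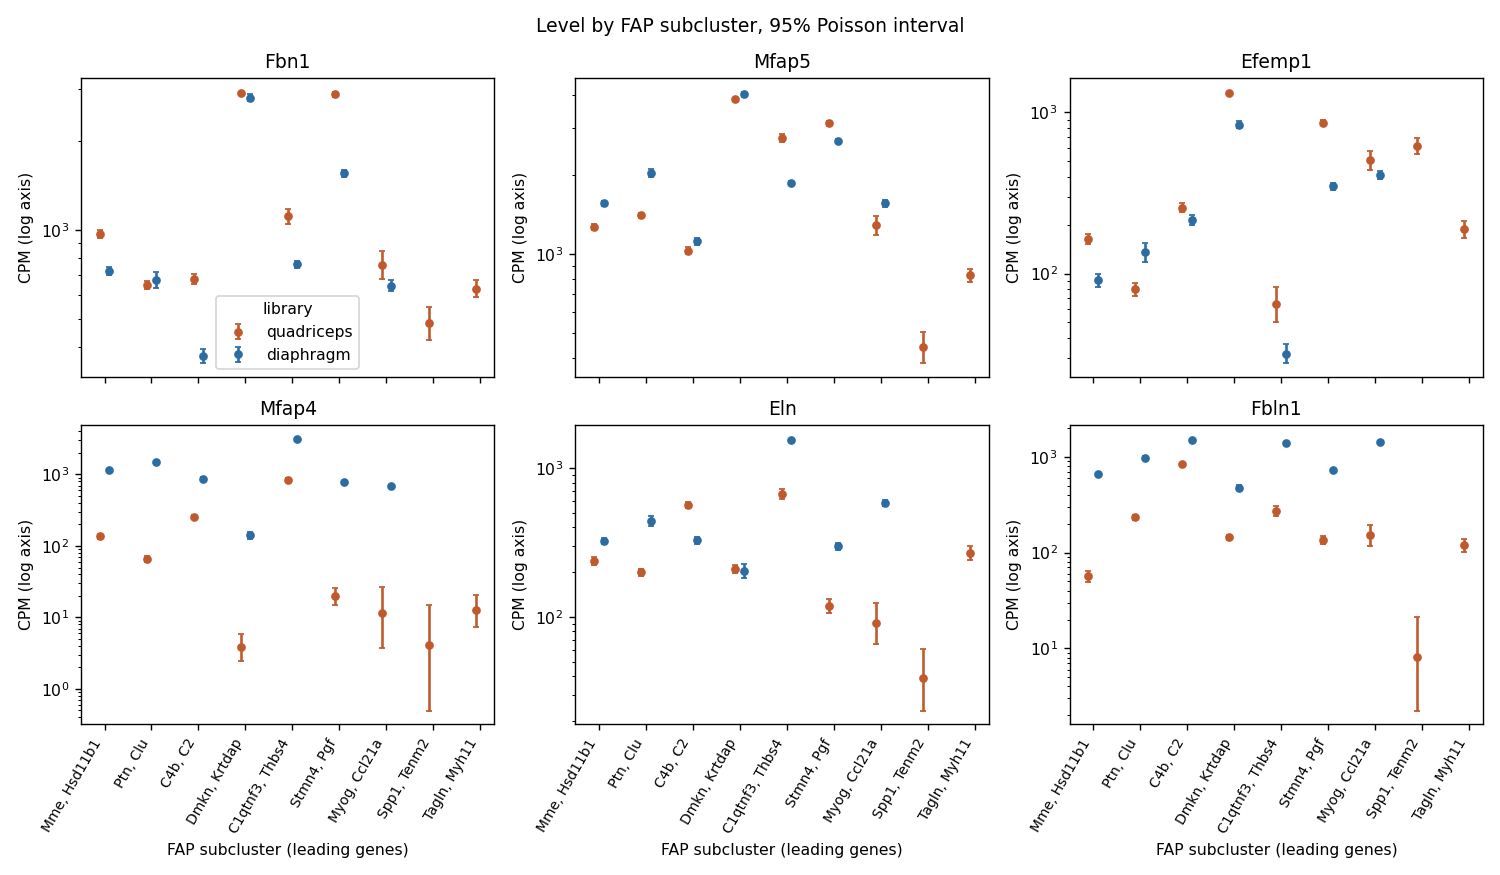
CPM on a log axis of 6 genes in FAP subclusters with at least 20 cells of a library, named on the horizontal axis by leading genes, with 95% Poisson intervals. At this resolution of 0.5, Fbn1, Mfap5 and Efemp1 (top) peak in the subcluster led by Dmkn and Krtdap, and Mfap4 and Eln (bottom) in the one led by C1qtnf3 and Thbs4, while at a resolution of 1 several of these peaks lie in other subclusters.

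Since the muscles differed in the make-up of their FAPs, folds were also taken within the 7 shared subclusters. Mfap4 was at least 2-fold higher in diaphragm in 7 of 7, from 3.48-fold in the C4b-led subcluster to 60.2-fold (interval 25.8 to 186) in the Myog- and Ccl21a-led subcluster, where quadriceps had 29 cells and 5 Mfap4 UMIs. Fbln1 was higher in diaphragm in 7 of 7 and past 2-fold in 6, with 836 and 1495 CPM in the remaining C4b-led subcluster. In the C4b-led subcluster at a resolution of 1 it stood at 795 and 1606 CPM, past 2-fold. Fbln5 was higher in diaphragm in 7 of 7 and past 2-fold in 2.

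Eln did not keep one direction at a resolution of 0.5. It was past 2-fold toward diaphragm in 4 of 7 subclusters, equal within counting error in the Dmkn-led one (210 and 204 CPM), and lower in diaphragm in the C4b-led one (568 and 328 CPM). That last difference was smaller in the C4b-led subcluster at a resolution of 1 (478 and 386 CPM). On the log2 scale with 1 CPM added, Efemp1 was past 2-fold toward quadriceps in 1 of 7, the Stmn4-led subcluster (864 and 347 CPM). It lay at the limit in the C1qtnf3-led one (64.7 and 31.9 CPM, a plain ratio of 0.492), and was higher in diaphragm in the Ptn-led one (79.8 and 135 CPM). Efemp2 was lower in diaphragm in 7 of 7 but past 2-fold in none. With each of the 7 subclusters given equal weight, the log2 folds were 2.62 for Mfap4 and 1.96 for Fbln1, which stayed past 2-fold, and 0.83 for Eln and -0.65 for Efemp1, which did not.

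The last question was whether FAPs rich in one gene were rich in the others. Pearson correlations were taken within each library over FAPs, on ln(1 + UMIs per 10000). The cells share a library and differ in depth, so these are descriptions. Over the 45 pairs the mean r was 0.0539 in quadriceps and 0.0593 in diaphragm, beside 0.00567 and 0.00524 over all pairs of 8201 genes. These were the genes seen in at least 10% of FAPs of each library. They were not matched to the 10 genes on level, and r falls when fewer UMIs are counted. Of the 45 pairs, 29 and 28 were above 0, and 58.1% and 57.4% of all gene pairs were. Since the genes were chosen with earlier results of these data known, these comparisons are no test. The mean hid wide differences between pairs, with a range of -0.304 to 0.668 in quadriceps and -0.512 to 0.591 in diaphragm.

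**Figure D5:**
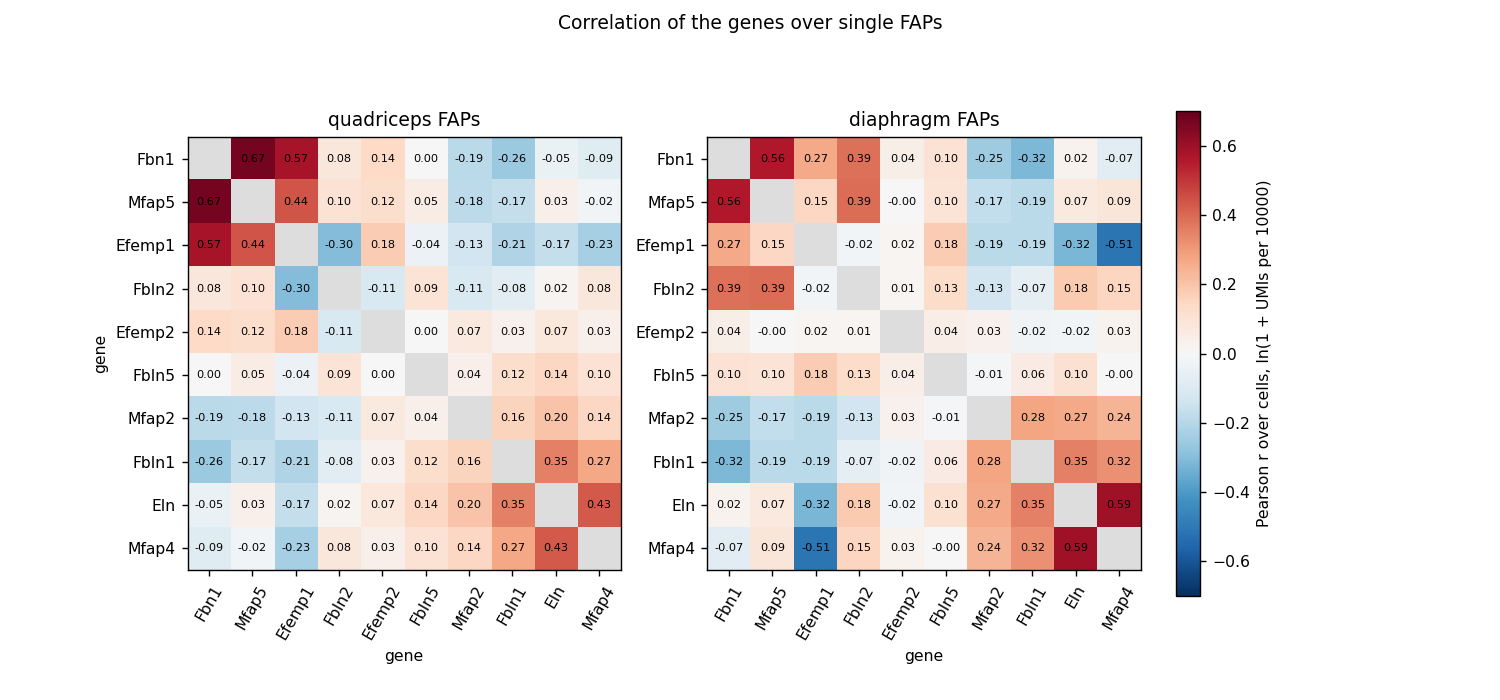
Pearson r over FAPs for each pair of genes (both axes) in quadriceps (left) and diaphragm (right), with red above 0 and blue below 0. Fbn1, Mfap5 and Efemp1 form a red block at the upper left, and Mfap2, Fbln1, Eln and Mfap4 another at the lower right, with blue between Efemp1 and Mfap4 (-0.232 and -0.512).

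The fibrillin gene went with Mfap5 and Efemp1. Fbn1 and Mfap5 had an r of 0.668 in quadriceps and 0.558 in diaphragm. Fbn1 and Efemp1 had 0.574 and 0.267, and Mfap5 and Efemp1 had 0.442 and 0.148. Fbln2 differed between libraries: its r with Fbn1 was 0.0776 in quadriceps and 0.386 in diaphragm, and its r with Efemp1 was -0.304 and -0.0183. Some of these genes also correlated with the total UMIs of a cell. The r with log10 depth was 0.232 in quadriceps and 0.324 in diaphragm for Fbn1, 0.214 and 0.304 for Mfap5, and -0.0363 and 0.233 for Fbln2.

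The elastin gene went with Mfap4 and Fbln1. Eln and Mfap4 had an r of 0.427 in quadriceps and 0.591 in diaphragm. Eln and Fbln1 had 0.351 and 0.355, Mfap4 and Fbln1 had 0.272 and 0.318, and Mfap2 and Eln had 0.199 and 0.267. Eln and Fbn1 showed little relation (-0.0451 and 0.0243). Between the blocks, Efemp1 ran against Mfap4 (-0.232 and -0.512) and Eln (-0.165 and -0.320), and Fbn1 ran against Fbln1 (-0.262 and -0.317). Efemp2 had no pair past 0.2 in either direction in either library.

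Thinning the cells lowered the r of the leading pairs without turning its sign. With each FAP thinned to 5000 UMIs, Fbn1 and Mfap5 had an r of 0.589 in quadriceps and 0.441 in diaphragm, and Mfap4 and Eln had 0.377 and 0.543. At 1000 UMIs the values fell to 0.346 and 0.228 for Fbn1 and Mfap5, and to 0.313 and 0.351 for Mfap4 and Eln.

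The genes outside the set with the most similar pattern were ranked by the smaller r of the libraries. Over 2339 quadriceps and 2008 diaphragm FAPs, Fbn1 was nearest to Fstl1 (0.674 and 0.645), followed by Anxa3 and Cd55. Mfap5 was nearest to Fstl1 (0.643 and 0.577), Pi16 and Cd248. Efemp1 was nearest to Fn1, the fibronectin gene (0.667 and 0.581), then Cd248 and Efhd1. Mfap4 was nearest to Col8a1 (0.459 and 0.582), then Cilp and Ctgf. Eln and Fbln1 were both nearest to Lox, the lysyl oxidase that crosslinks elastin and collagen, at 0.334 and 0.451 for Eln and 0.393 and 0.398 for Fbln1. Fbln2 was nearest to Hmcn2 (0.561 and 0.320). The nearest genes of Mfap2 (Cpxm1), Fbln5 (Serping1) and Efemp2 (Rpn2) had a smaller r of 0.265, 0.208 and 0.110.

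The other genes of the elastic fibre pathway formed a list of 46, of which 23 reached 50 CPM in FAPs of either tissue. Of these 23, 1 was at least 2-fold higher in diaphragm, 2 were at least 2-fold higher in quadriceps and 20 were neither, beside 3.66% and 3.11% of all genes tested in these directions. The median log2 fold was 0.21, beside -0.10 over all genes tested. Tgfb3, a transforming growth factor beta ligand, stood at 44.9 CPM in quadriceps FAPs and 107 CPM in diaphragm FAPs. Its relative Tgfb2 stood at 119 and 58.9 CPM, just past the limit (ratio 0.495). Adamtsl1, a secreted protein of the ADAMTS-like family, stood at 120 and 38.1 CPM.

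The crosslinking enzymes differed less than elastin. Lox stood at 124 CPM in quadriceps FAPs and 170 CPM in diaphragm FAPs, and Loxl1 at 412 and 593 CPM. Ltbp4, a latent transforming growth factor beta binding protein that also takes part in elastic fibre assembly, stood at 824 and 1243 CPM (log2 fold 0.59). The 23 genes under 50 CPM included Fbn2, the other mouse fibrillin, with 44 UMIs in quadriceps FAPs and 348 in diaphragm FAPs. They also included the macrophage elastase gene Mmp12, with 0 UMIs in both.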

How the data were processed

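The samples were 1 quadriceps and 1 diaphragm library of pooled mouse cells. The deposited values were raw UMI counts per gene and barcode, with cells already called. Per the submitters' notes, Cell Ranger 3.0.0 and mm10 were used by the authors. The 10 genes and the gene and marker lists were chosen with earlier results of these data known.

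Barcodes with under 1000 UMIs, or more than 3 scaled median absolute deviations above the median on a log10 scale, were left out. A limit of 5% mitochondrial UMIs, which the study states for its human cells, was an alternative, since it removed all smooth muscle-like cells. The study prints a lower percentage for its mouse cells, which may stand for a fraction and thus for the same limit. That lower percentage was not run here. Of the cells kept in the main results, 56.7% in quadriceps and 31.6% in diaphragm had over 5% mitochondrial UMIs. Scrublet called 1.90% of quadriceps and 0.160% of diaphragm barcodes doublets, and these were kept in the main results.

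Both libraries were clustered together with scanpy 1.11.5 (2000 variable genes, 10 principal components, 20 neighbours, Leiden resolution 1) without the 10 genes and the pathway list. A cluster took a name when at least 3 markers of a type were seen in at least 25% of its cells and raised at least 2-fold, more than of any other type. Its 10 leading genes also had to hold at least as many markers of that type as of any other type. A cluster of low depth took no name when no marker of the type was among its leading genes. A cluster was FAP-like when at least 6 of 7 FAP markers were seen and no other type had the name. This naming rule was set after the clusters were seen. Clusters left unnamed held 385 quadriceps and 18 diaphragm cells. The FAP gate took precedence over the cluster. FAP subclusters used resolution 0.5, and their leading genes were chosen after their values were seen.

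Levels were CPM of summed counts, and 1 CPM was added before taking log2 folds. Intervals are exact at 95% (Poisson or Clopper-Pearson), a count of 0 was given a limit of 3 counts, and both cover counting error only, since cells are not replicates. The text names all 10 genes, every pathway gene past 2-fold between tissues of those reaching 50 CPM in either tissue, and up to 3 genes nearest each of the 10 among genes seen in at least 10% of FAPs of each library. Lox, Loxl1, Ltbp4, Fbn2 and Mmp12 were named after their values were seen. Fold calls were checked on simulated counts that held Poisson error only and built-in folds above the 2-fold limit. Thinning was checked on quadriceps FAPs. These checks cover the code and not the variation between animals or libraries. TMM scaling used edgeR 4.0.16.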

Additional observations from a re-analysis of the deposited data

How the results depend on the processing

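No paired analysis was possible because there was 1 library per tissue and the results come from no test. Under a limit of 5% mitochondrial UMIs, 10 genes in place of 4 had their highest level in FAPs of quadriceps, since fewer classes reached 20 cells. Equal weight to each shared FAP subcluster, an alternative chosen after seeing the data, left 0 genes in place of 1 past 2-fold toward quadriceps and 2 in place of 3 toward diaphragm. Of all 3297 genes tested at that setting, 78 passed toward quadriceps and 108 toward diaphragm. Without thinning, 9 quadriceps and 10 diaphragm genes were seen in over 50% of FAPs, in place of 3 and 5. At a subcluster resolution of 1, 7 genes in place of 4 ranged over 5-fold in diaphragm. Thinning to 1000 UMIs lowered the mean r to 0.0208 in quadriceps and 0.0248 in diaphragm. The mean over all gene pairs fell as well, to 0.000132 and 0.000121. The other recomputed summary values stayed within their tolerance, those without the Tagln-led subcluster among them, which was also chosen after seeing the data.

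Over 12 alternatives the log2 folds ranged from 2.62 to 3.81 for Mfap4, 1.96 to 2.17 for Fbln1, 0.83 to 1.41 for Eln and -1.25 to -0.65 for Efemp1. Over all genes, 121 were called higher in diaphragm and 103 in quadriceps. Without an expression minimum these counts were 401 and 657, and with a minimum of 100 CPM they were 86 and 54. TMM scaling gave 141 and 82, and centring on the median fold 138 and 86. Depth limits the small classes, where a count of 0 allows up to 27.8 CPM in the 20 diaphragm satellite-like cells and 16.2 CPM in the 58 quadriceps endothelial-like cells.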

Other observations

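Some cells lay outside the comparisons because their class was small or unnamed. The diaphragm held 7 mesothelial-like cells, led by Slpi, Upk3b and Msln. Efemp1 stood at 1346 CPM in them (95% Poisson interval 1113 to 1613) and Eln at 1047 CPM (843 to 1286), both above diaphragm FAPs at 230 and 662 CPM. Mfap4 had 1 UMI in the same cells. In the 10 endothelial-like cells of diaphragm, Eln had 9 UMIs, Fbln2 had 11 and Fbln5 had 5.

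The 385 unnamed quadriceps cells came from 2 clusters, one led by Rgs5 and one by haemoglobin and mitochondrial genes. In the Rgs5-led cluster 7 smooth muscle markers were seen and raised, and Scrublet called 64 of its cells in both libraries doublets. That cluster took no name because its leading genes held the pericyte marker Rgs5 and no smooth muscle marker. Eln stood at 409 CPM in the unnamed cells of both clusters (385 to 435) and was seen in 49.1% of cells, while Fbn1 stood at 48.8 CPM and Fbln2 at 13.5 CPM. The 18 tenocyte-like cells of diaphragm had 8 Mfap4 UMIs, at 260 CPM (112 to 512), against 1507 CPM in the tenocyte-like cells of quadriceps. The median depth of these diaphragm cells was 1501 UMIs. Their median mitochondrial share was 38.1%, against 10.7% in the tenocyte-like cells of quadriceps. The part of this in the difference was not tested.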
